A study of Mus musculus with 10 samples.

Results

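Mouse zinc finger genes with a symbol made of Zfp9 and exactly 2 further digits were followed through oocytes of 3 groups. The deposited count table held 60 such genes, from Zfp930 to Zfp995, of 18493 genes in all, and none of the 60 was a pseudogene. They are called members below. They were selected on the measured levels of Zfp961 and Zfp979, which were higher in aged than in young oocytes and lower with spermidine, so the values of those 2 genes are a description and carry no test. The symbols form a naming series given out by number, not a single branch of descent.

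The 10 oocyte libraries from mouse ovary were made by SMART-seq2, in which RNA with a poly(A) tail is primed with oligo dT and copied into full-length cDNA. The spermidine group (n = 4) carries the treatment label Rescue and was taken as aged oocytes given spermidine, a polyamine metabolite. The aged group (n = 3) carries the treatment label Treatment, and the young group (n = 3) the label Control. The study asked how transcript levels of oocytes change with age and with spermidine. Strain, age, dose and the number of oocytes or females behind a library are not stated in the labels, and a p-value therefore reflects library-to-library spread, which may be technical.

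Most mouse zinc finger proteins of this kind join an array of C2H2 fingers, which reads DNA, to a KRAB domain, which recruits the corepressor Trim28. Trim28 brings in the histone H3 lysine 9 methyltransferase Setdb1 and HP1 proteins, and the complex silences retrotransposons and guards imprinted DNA methylation through early development. KRAB zinc finger genes have multiplied by tandem duplication, so neighbours in a cluster are often close copies. Oocytes lay down the transcripts and proteins that the early embryo uses before its own genome is active. By the longest open reading frame of each gene's transcript, the members held a median of 11 C2H2 fingers (range 0 to 21, 58 members with a transcript sequence). Zfp961 had 11 fingers and Zfp979 had 3.

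The members lay on 12 chromosomes, with 13 each on chromosomes 4 and 17, 10 on chromosome 2, 9 on chromosome 7 and 5 on chromosome 8. All 13 of chromosome 4 stood in a single interval from Zfp990 to Zfp933 that holds 18 protein-coding genes in RefSeq. Promoters of Zfp961 and of 4 genes of that interval are printed here because these genes differed between groups in both directions. Each is the 300 bases of RefSeq (build GRCm38.p6) around a gene's start, written 5′ to 3′ along the gene's strand, with the CCAAT box in capitals on either strand (CCAAT or ATTGG). Zfp961 lies at chr8:71950816-71951115 (+ strand), Zfp979 at chr4:147642459-147642758 (- strand), Zfp987 at chr4:146097062-146097361 (+ strand), Zfp985 at chr4:147553027-147553326 (+ strand) and Zfp984 at chr4:147809739-147810038 (- strand).
Zfp961: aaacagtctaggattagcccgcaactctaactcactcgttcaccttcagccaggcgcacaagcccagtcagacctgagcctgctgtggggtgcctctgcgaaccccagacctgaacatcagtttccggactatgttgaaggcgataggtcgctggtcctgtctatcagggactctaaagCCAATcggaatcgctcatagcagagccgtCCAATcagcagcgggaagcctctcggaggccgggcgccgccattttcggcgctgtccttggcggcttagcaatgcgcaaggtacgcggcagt
Zfp979: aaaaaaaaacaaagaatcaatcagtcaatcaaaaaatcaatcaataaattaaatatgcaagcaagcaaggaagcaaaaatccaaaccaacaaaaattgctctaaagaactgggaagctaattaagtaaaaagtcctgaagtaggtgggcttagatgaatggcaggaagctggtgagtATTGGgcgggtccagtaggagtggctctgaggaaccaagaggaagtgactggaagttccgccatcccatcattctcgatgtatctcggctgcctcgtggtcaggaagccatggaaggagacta
Zfp987: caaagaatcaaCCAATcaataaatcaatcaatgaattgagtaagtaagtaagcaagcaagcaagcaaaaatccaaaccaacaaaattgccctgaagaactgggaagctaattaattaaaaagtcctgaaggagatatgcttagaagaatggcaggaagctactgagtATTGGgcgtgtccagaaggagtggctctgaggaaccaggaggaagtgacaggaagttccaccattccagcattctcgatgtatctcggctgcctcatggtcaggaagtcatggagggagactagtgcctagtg
Zfp985: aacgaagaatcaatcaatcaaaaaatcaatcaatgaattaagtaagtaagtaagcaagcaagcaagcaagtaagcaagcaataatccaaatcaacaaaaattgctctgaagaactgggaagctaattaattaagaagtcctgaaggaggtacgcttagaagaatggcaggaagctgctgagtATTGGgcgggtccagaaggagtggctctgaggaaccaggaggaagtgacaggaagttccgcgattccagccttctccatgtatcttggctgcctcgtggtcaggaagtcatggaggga
Zfp984: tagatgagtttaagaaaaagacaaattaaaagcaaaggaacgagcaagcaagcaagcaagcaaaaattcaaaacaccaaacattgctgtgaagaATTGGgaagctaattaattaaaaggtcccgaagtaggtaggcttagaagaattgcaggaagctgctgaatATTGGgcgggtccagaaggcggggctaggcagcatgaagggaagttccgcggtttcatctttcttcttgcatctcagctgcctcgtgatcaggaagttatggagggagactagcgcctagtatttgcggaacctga

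The promoters of Zfp979, Zfp987 and Zfp985 were near copies of each other. Zfp987 and Zfp985 were identical at 89.0% of aligned bases, Zfp979 and Zfp985 at 85.7%, and Zfp979 and Zfp987 at 85.7%. Zfp984 matched Zfp979 at 73.3%, and Zfp961 matched it at 52.7%. Within the interval, pairs ran as low as 44.7% (Zfp993 and Zfp985). Unrelated promoters were not aligned as a baseline, so no likeness is read from 52.7%. Of the 60 members 53 had a promoter in the RefSeq table. The letters CCAAT, searched on both strands, were found in 40 of these 53 (75.5%), against 37.9% of the first promoters of 27025 genes. The same letters were in 7 of the 9 promoters available for chromosome 4. TATAAA was in none of the 53, against 14.2% of all promoters. GGGCGG was in 34.0%, against 35.9%, CACGTG in 13.2%, against 7.24%, and TGACGTCA in 1.89%, against 1.88%. The ATTGG nearest the start, followed by gcg, is common to the printed promoters of Zfp979, Zfp987, Zfp985 and Zfp984. These genes were printed because they differed in both directions, and any link of these letters to the levels was not tested.

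Library totals lay between 24222201 and 28730822 counts, and levels are given as CPM, the counts scaled to a common library total. Of the 60 members 56 passed the filter on low counts and were tested among 12315 genes. Zfp995, Zfp968, Zfp976 and Zfp941 were not tested, with at most 5, 10.15, 8.96 and 2 counts in any library. The 60 members together took 1100 to 1590 CPM in spermidine libraries, 1270 to 1320 CPM in aged libraries and 1350 to 1630 CPM in young libraries. These sums include the scaling factor: spermidine replicate 1, at 1100 CPM, held 0.135% of its counts in members. The share of counts ran from 0.127% to 0.151% over the 10 libraries. The libraries were those of oocytes by their markers: 13 oocyte genes summed to 27200 to 43600 CPM, against 18.3 to 26.1 CPM for 10 granulosa and cumulus markers and 1.80 to 3.84 CPM for 8 theca and stromal markers. The 10 blood and immune markers summed to 0.729 to 1.38 CPM in spermidine libraries, 0.624 to 10.9 CPM in aged libraries and 1.4 to 25.6 CPM in young libraries, highest in young replicates 1 and 3 and aged replicate 1. Most of that sum was haemoglobin RNA, and its part in the results was not tested. Libraries also differed in how their levels moved with GC content across genes: the correlation was lowest in young replicate 3, at -0.258, and highest in aged replicate 3, at 0.379, where genes are not independent replicates. For transcript length, aged replicate 1 stood apart, with a correlation of 0.414, where the other libraries lay between -0.204 and 0.15. The members have AT-rich transcripts, with a median GC content of 38.6%, against 49.2% over all tested genes, and counts from a fit that corrects for length and GC content are given beside the main ones.

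Many members are close copies, which bears on how reads are shared out between them. The share of a transcript's 50-base stretches found in no other gene was 100% for Zfp961, whose counts were whole numbers in every library. It was 75.4% for Zfp979, which shares 19.6% of its stretches with Zfp978. The median was 56.3% over the 13 members of chromosome 4, 27.0% over the 10 of chromosome 2 and 94.8% over the others, and 13 members had less than 50% of their own. Values of members with a low share are uncertain, since the authors' counting could split reads between copies, and the share is given below beside members where it is under 50%.

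Zfp961 encodes a KRAB zinc finger protein that binds the lysine tRNA primer binding site of endogenous retroviruses. Its level was 8.72, 9.28, 8.06 and 14.3 CPM in spermidine libraries, 33.3, 35.4 and 33.1 CPM in aged libraries and 11.1, 9.44 and 13.7 CPM in young libraries. All 3 aged libraries stood above every other library by more than 2-fold, and the spermidine and young libraries overlapped. The means were 10.1 ± 2.83 CPM (SD, n = 4) with spermidine, 33.9 ± 1.29 CPM (n = 3) in aged oocytes and 11.4 ± 2.14 CPM (n = 3) in young oocytes. On the log2 scale the difference was 1.57 ± 0.22 (SE) for aged minus young, -1.75 ± 0.20 for spermidine minus aged and -0.18 ± 0.21 for spermidine minus young.

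Zfp979, a chromosome 4 gene, showed the same order of groups. It stood at 10.9, 12.3, 13 and 16.4 CPM in spermidine libraries, 40.7, 46.6 and 28.8 CPM in aged libraries and 12.4, 11.2 and 13.9 CPM in young libraries. Aged replicate 3 was the lowest of the aged libraries and still above every spermidine and young library. The means were 13.2 ± 2.31 CPM with spermidine, 38.7 ± 9.07 CPM in aged oocytes and 12.5 ± 1.34 CPM in young oocytes (SD, n = 4, 3 and 3). The log2 differences were 1.63 ± 0.21 (SE) for aged minus young, -1.55 ± 0.19 for spermidine minus aged and 0.07 ± 0.19 for spermidine minus young. In all 20 alternative fits the log2 differences of aged minus young oocytes lay from 1.45 to 1.71 for Zfp961 and from 1.48 to 1.81 for Zfp979. For spermidine minus aged they lay from -1.96 to -1.66 and from -1.73 to -1.40. These fits reuse the libraries whose values chose both genes, so their stability is no support.

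The first comparison asks which members differ with age. Beside Zfp961 and Zfp979, 15 of the 54 other tested members changed between aged and young oocytes, 6 higher and 9 lower in aged oocytes (edgeR quasi-likelihood test, Benjamini-Hochberg adjusted p under 0.05 over all tested genes). Over all 12315 tested genes 17.8% were called, 9.71% higher and 8.06% lower. The choice of these genes used this comparison, so nothing is read from the members' share. The median log2 difference was 0.02 over the 56 tested members and 0.10 over all tested genes. With Zfp961 and Zfp979 counted the split was 8 higher and 9 lower; with libraries scaled by total counts it was 8 higher and 4 lower, and the median over all genes moved to 0.24. The length and GC correction gave 9 higher and 7 lower.

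On chromosome 4, 9 of the 12 other members changed (75.0%), 3 higher and 6 lower in aged oocytes. On the remaining chromosomes 6 of 42 other tested members changed (14.3%). Over all tested genes 17.8% were called. The grouping by chromosome was made after the values were seen and was not tested. Members of this interval changed in both directions, as the plot of their levels shows. Without young replicate 3 the calls over all 56 were 11, and 7 with a filter of 10 CPM, which tests fewer genes. In libraries of whole cells, a difference in the number of cells that hold a transcript and in the amount per cell cannot be told apart.

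**Figure D1:**
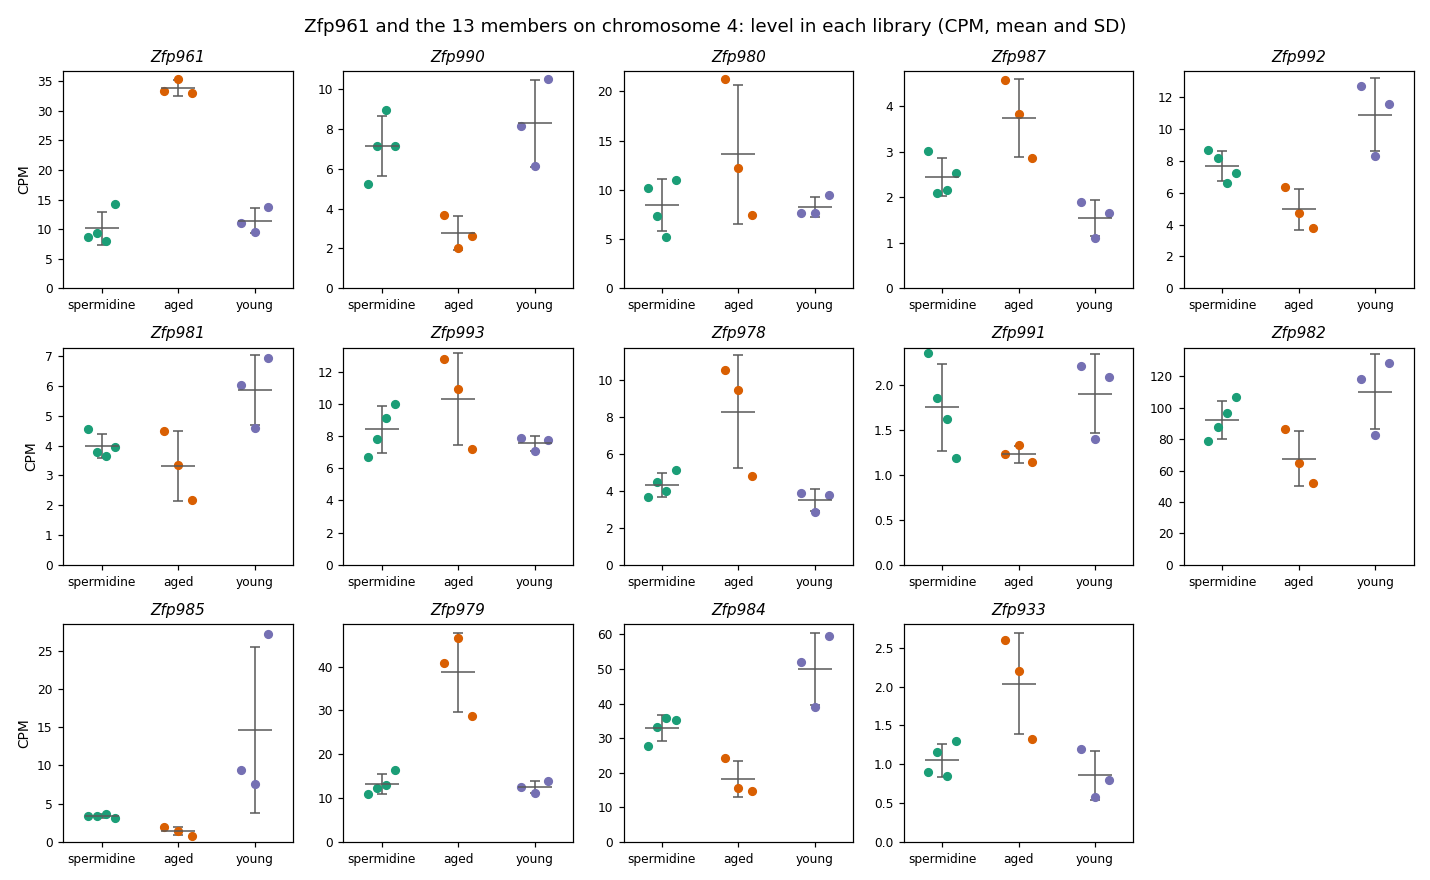
Level of Zfp961 and of the 13 members on chromosome 4 in each library (vertical axis, CPM on a linear scale from 0) in spermidine (n = 4), aged (n = 3) and young (n = 3) oocytes. Points are libraries, and bars give the mean and the SD. Zfp961 and Zfp979 are highest in the 3 aged libraries, and Zfp990, Zfp985 and Zfp984 are lowest there.

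Of the members lower in aged oocytes, Zfp985 fell furthest. Its level was 3.43, 3.41, 3.69 and 3.11 CPM in spermidine libraries, 1.94, 1.44 and 0.807 CPM in aged libraries and 9.35, 7.50 and 27.1 CPM in young libraries. The 3 groups did not overlap, and young replicate 3 stood well above the other 2 young libraries. The log2 difference was -3.38 ± 0.47 (adjusted p = 0.001) for aged minus young, and -2.64 without young replicate 3. For spermidine minus aged it was 1.28 ± 0.44 (adjusted p = 0.101), and for spermidine minus young -2.10 ± 0.39 (adjusted p = 0.00796), or -1.36 without young replicate 3. With aged replicate 1 and spermidine replicate 1 both left out the last adjusted p was 0.0505. With DESeq2 the increase with spermidine passed (adjusted p = 0.0309), and without young replicate 3 it did as well (adjusted p = 0.0387).

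Zfp984 stood at 27.6, 33.3, 35.8 and 35.3 CPM in spermidine libraries, 24.2, 15.5 and 14.7 CPM in aged libraries and 51.9, 39.0 and 59.6 CPM in young libraries. The groups did not overlap, and the spermidine libraries lay between the aged and the young ones. Zfp984 fell by 1.46 ± 0.22 on the log2 scale in aged oocytes against young oocytes (adjusted p = 0.0016) and rose by 0.86 ± 0.21 with spermidine against aged oocytes (adjusted p = 0.0388). The rise with spermidine lost its call when any 1 of 6 of the 10 libraries was left out, with adjusted p up to 0.134 without aged replicate 2. Of its stretches 42.6% are its own and 49.8% are in common with Gm13212, near the other end of the interval. Gm13212 itself did not pass, at 4.09 CPM in aged and 5.58 CPM in young oocytes (log2 difference -0.45 ± 0.21, adjusted p = 0.157).

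Zfp990, at the other end of the interval, had 5.26, 7.14, 8.95 and 7.17 CPM in spermidine libraries, 3.70, 2.01 and 2.61 CPM in aged libraries and 8.15, 6.14 and 10.5 CPM in young libraries. Every aged library lay below every other library, and spermidine and young libraries overlapped. It fell by 1.57 ± 0.28 on the log2 scale in aged against young oocytes (adjusted p = 0.00437) and rose by 1.36 ± 0.27 with spermidine against aged oocytes (adjusted p = 0.0206). The rise with spermidine lost its call without aged replicate 2 or 3, or without spermidine replicate 2 or 3, with adjusted p up to 0.0893. The spermidine and young groups differed by -0.22 ± 0.25 (adjusted p = 0.679).

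Zfp992, Zfp982 and Zfp981 were also lower in aged oocytes. Zfp992 stood at 8.69, 8.19, 6.60 and 7.25 CPM in spermidine libraries, 6.37, 4.70 and 3.78 CPM in aged libraries and 12.7, 8.29 and 11.6 CPM in young libraries. Its aged libraries were the lowest of all 10, and it fell by 1.13 ± 0.23 on the log2 scale in aged against young oocytes (adjusted p = 0.00817). Zfp982, reported in mouse embryonic stem cells to promote expression of stemness genes, had 78.5, 87.6, 96.3 and 107 CPM in spermidine libraries, 86.2, 64.8 and 51.9 CPM in aged libraries and 118, 82.6 and 128 CPM in young libraries. Aged replicate 1 lay above young replicate 2, so the groups overlapped. It fell by 0.70 ± 0.21 on the log2 scale in aged against young oocytes (adjusted p = 0.0408), and the call was lost when any 1 of 6 of the 10 libraries was left out (adjusted p up to 0.129) and with the length and GC correction, where the difference was -0.34 (adjusted p = 0.235). Zfp981 had 4.54, 3.77, 3.64 and 3.95 CPM in spermidine libraries, 4.50, 3.34 and 2.17 CPM in aged libraries and 6.04, 4.60 and 6.94 CPM in young libraries. Aged replicate 1 nearly reached young replicate 2, and the fall of 0.81 ± 0.26 on the log2 scale (adjusted p = 0.0495) was lost when any 1 of 7 of the 10 libraries was left out, with adjusted p up to 0.139.

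Zfp978, Zfp987 and Zfp933 moved upward beside Zfp979. Zfp978 had 3.64, 4.46, 4.01 and 5.14 CPM in spermidine libraries, 10.5, 9.44 and 4.81 CPM in aged libraries and 3.87, 2.84 and 3.78 CPM in young libraries. The aged libraries exceeded all young ones, while aged replicate 3 fell within the spermidine range. It rose by 1.24 ± 0.28 on the log2 scale in aged against young oocytes (adjusted p = 0.012), and differed by -0.94 ± 0.25 with spermidine against aged oocytes (adjusted p = 0.0538). This second difference passed with DESeq2 (adjusted p = 0.0121), without aged replicate 3 (0.0262), without spermidine replicate 4 (0.0415) and with the length and GC correction (-1.26, adjusted p = 0.0117). Its own share of sequence is 24.1%, with 54.5% in common with Zfp600, which did not pass in this interval (-0.12 ± 0.27 for aged minus young, adjusted p = 0.784). Zfp979, the more abundant gene, shares 19.6% of its stretches with Zfp978, so the level of Zfp978 is uncertain. Whether reads of Zfp979 enter it was not tested.

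Zfp987 stood at 3.01, 2.10, 2.15 and 2.53 CPM in spermidine libraries, 4.57, 3.83 and 2.86 CPM in aged libraries and 1.89, 1.11 and 1.65 CPM in young libraries. Aged libraries were above all young ones and overlapped with the spermidine libraries at aged replicate 3. It rose by 1.29 ± 0.26 on the log2 scale in aged against young oocytes (adjusted p = 0.00809). Spermidine minus aged was -0.61 ± 0.23 (adjusted p = 0.135), and -0.76 (adjusted p = 0.0391) with the length and GC correction. Only 6.90% of its stretches are its own, the lowest share on chromosome 4, so its level is uncertain.

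Zfp933, which by contrast is 98.9% its own sequence, had 0.902, 1.16, 0.85 and 1.3 CPM in spermidine libraries, 2.60, 2.20 and 1.32 CPM in aged libraries and 1.20, 0.574 and 0.801 CPM in young libraries. Its aged libraries lay above every other library, aged replicate 3 by a small margin. It rose by 1.26 ± 0.34 on the log2 scale in aged against young oocytes (adjusted p = 0.0255), a call lost without aged replicate 1 or 2 or young replicate 2 or 3 (adjusted p up to 0.0978). Spermidine minus aged was -0.95 ± 0.30 (adjusted p = 0.0845).

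The remaining 3 members of the interval did not pass. Their own shares of sequence are 27.4% for Zfp980, 13.2% for Zfp993 and 13% for Zfp991, so their levels are uncertain. Aged minus young was 0.73 ± 0.35 for Zfp980 (adjusted p = 0.159), 0.45 ± 0.23 for Zfp993 (adjusted p = 0.18) and -0.62 ± 0.29 for Zfp991 (adjusted p = 0.147). A run of 4 members closes the interval, broken only by Zfp534 before Zfp984. There the log2 differences of aged minus young oocytes alternated in sign: -3.38 for Zfp985, 1.63 for Zfp979, -1.46 for Zfp984 and 1.26 for Zfp933. This run was picked after the values were seen and includes Zfp979. Earlier in the interval neighbouring members also shared a sign, as Zfp980 and Zfp987 did (0.73 and 1.29) and Zfp992 and Zfp981 (-1.13 and -0.81). The 5 other genes of the interval, Gm13212, Zfp600, Rex2, Zfp988 (carried in the count table under another symbol) and Zfp534, gave no call in any comparison with edgeR, with 0, 0 and 1 at an unadjusted p under 0.05 (aged minus young, spermidine minus aged, spermidine minus young) and 0 with DESeq2. Zfp534, the most abundant of the 5, stood at 129 CPM with spermidine, 99.7 CPM in aged and 126 CPM in young oocytes. Whether members and these 5 genes differ was not tested.

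Summed over the interval's 13 members, the level was 166, 181, 191 and 211 CPM in spermidine libraries, 221, 178 and 130 CPM in aged libraries and 243, 180 and 283 CPM in young libraries. The groups overlapped. The 4 members called higher in aged oocytes summed to 18.5 to 25.4 CPM with spermidine, 37.8 to 62.0 CPM in aged and 15.7 to 20.1 CPM in young libraries. The 6 called lower summed to 128 to 164 CPM with spermidine, 76.0 to 127 CPM in aged and 148 to 244 CPM in young libraries. These sums group members by the direction they took and are a description only. The spread among the aged libraries was wide in both sums, and aged replicate 3 was the lowest of the 3 in each.

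**Figure D2:**
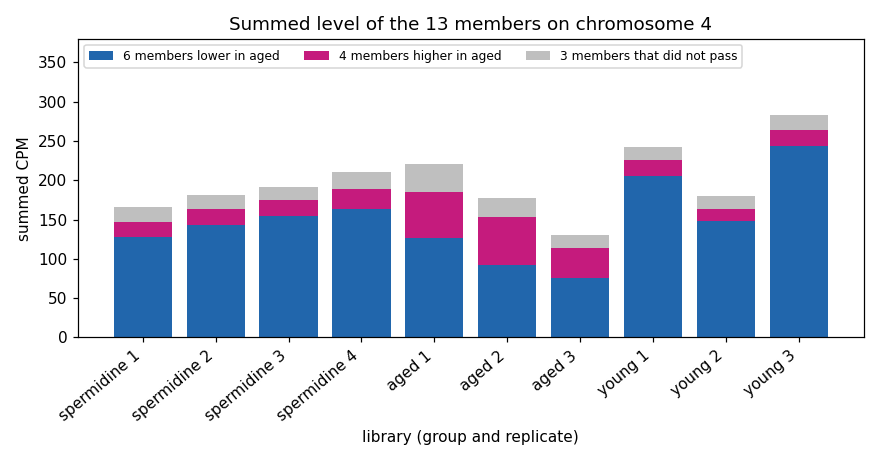
Summed level (vertical axis, CPM, from 0) of the 13 members on chromosome 4 in each library, ordered as spermidine, aged and young. Colours stack the 6 members called lower in aged oocytes, the 4 called higher and the 3 that did not pass; the 4 higher members take 37.8 to 62.0 CPM in aged libraries and at most 25.4 CPM elsewhere.

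On chromosome 8, 3 further members of 5 changed between aged and young oocytes, where 17.8% of all tested genes were called. This chromosome too was singled out after the values were seen, and nothing is read from its count. Zfp964 had 12.4, 10.6, 10.8 and 12.7 CPM in spermidine libraries, 13.4, 10.7 and 6.68 CPM in aged libraries and 3.36, 4.13 and 5.83 CPM in young libraries. Young libraries were below all others, and spermidine and aged libraries overlapped. The rise was 1.21 ± 0.27 on the log2 scale in aged (adjusted p = 0.0109) and 1.39 ± 0.25 in spermidine oocytes (adjusted p = 0.00732), each against young oocytes. Without young replicate 1 the adjusted p-values were 0.0598 and 0.0561. Spermidine minus aged was 0.18 ± 0.24 (adjusted p = 0.684).

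Zfp930 and Zfp963 were lower in aged oocytes. Zfp930 stood at 31.6, 27.6, 28.7 and 29.4 CPM in spermidine libraries, 35.1, 31.9 and 31.5 CPM in aged libraries and 57.6, 43.8 and 57.5 CPM in young libraries. The young libraries were above all others, and spermidine and aged libraries overlapped narrowly. Zfp930 fell by 0.69 ± 0.15 on the log2 scale in aged (adjusted p = 0.00951) and by 0.85 ± 0.14 in spermidine oocytes (adjusted p = 0.00299), each against young oocytes. With libraries scaled by total counts the first adjusted p was 0.0648.

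Zfp963 was the 1 member that was lower in aged than in young oocytes and lower again with spermidine. Its level was 5.26, 5.15, 6.52 and 6.67 CPM in spermidine libraries, 8.41, 9.78 and 10.7 CPM in aged libraries and 13.4, 15.5 and 15.6 CPM in young libraries. The 3 groups did not overlap. It fell by 0.62 ± 0.18 on the log2 scale in aged against young oocytes (adjusted p = 0.0299) and by 0.71 ± 0.16 with spermidine against aged oocytes (adjusted p = 0.0364). Both calls sit near the threshold: the first was lost when any 1 of 5 of the 10 libraries was left out (adjusted p up to 0.0795) and the second when any 1 of 8 was (up to 0.114). The fall of 1.33 ± 0.16 in spermidine against young oocytes (adjusted p = 0.000623) passed in all 20 alternatives. Its own share of sequence is 59.6%, with 39.7% in common with Gm20422.

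On chromosome 2, Zfp973 and Zfp972 were higher in both spermidine and aged oocytes than in young oocytes. Zfp973 had 0.872, 1.27, 0.729 and 1.38 CPM in spermidine libraries, 1.13, 1.06 and 1.03 CPM in aged libraries and 0.0461, 0 and 0.0445 CPM in young libraries. The aged libraries held 90 counts and the spermidine libraries 118, against 2 counts over the 3 young libraries, so the gene entered the test only through the groups in which it was present. Scaled by total counts, the ratio of summed counts was 42.6 for aged over young oocytes (95% exact interval 11.5 to 357). It was 43.1 for spermidine over young oocytes (11.7 to 360). These are not ratios of the CPM above, which have another scaling, and the intervals cover counting error only. Since that filter fixes the difference, its p-values are left out, and its place among the called members is no support. Of its sequence 11.3% is its own and 77.9% is shared with Zfp965, so its level is uncertain. Zfp965, with 0% of its own, stood at 2.33 CPM with spermidine, 2.39 CPM in aged and 2.49 CPM in young oocytes (aged minus young -0.06 ± 0.36, adjusted p = 0.92).

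Zfp972 had 1.86, 1.67, 1.66 and 1.27 CPM in spermidine libraries, 1.53, 1.67 and 1.69 CPM in aged libraries and 1.01, 0.574 and 0.445 CPM in young libraries. Young libraries were the lowest, and the other groups overlapped. The rise was 1.27 ± 0.30 on the log2 scale in aged (adjusted p = 0.0157) and 1.26 ± 0.29 in spermidine oocytes (adjusted p = 0.0259), each against young oocytes. Without young replicate 2 or 3 the adjusted p-values were 0.0528 and 0.0772 for aged and 0.0949 and 0.14 for spermidine oocytes, and the second call was also lost without spermidine replicate 1, 2 or 3 (adjusted p = 0.0763, 0.081 and 0.0548). Of 9 tested members on chromosome 2, none passed for spermidine minus aged with edgeR or DESeq2, nor at an unadjusted p under 0.05. Over all tested genes edgeR called 4.86% for that comparison.

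Zfp957, the 1 member on chromosome 14, had 55.0, 61.2, 61.4 and 47.8 CPM in spermidine libraries, 46.3, 46.0 and 42.0 CPM in aged libraries and 62.3, 61.9 and 57.9 CPM in young libraries. The aged libraries were the lowest of all, and spermidine and young libraries overlapped. The fall of 0.44 ± 0.14 on the log2 scale in aged against young oocytes (adjusted p = 0.0455) was lost when any 1 of 7 of the 10 libraries was left out, with adjusted p up to 0.13. Spermidine minus aged was 0.33 ± 0.13 (adjusted p = 0.144).

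The 12 tested members on chromosome 17 and the 7 on chromosome 7 gave no call for aged minus young oocytes with edgeR or with DESeq2. At an unadjusted p under 0.05, 2 of chromosome 17 and 0 of chromosome 7 did. The same held for spermidine minus aged, with 0 calls by either tool, and 2 and 0 at an unadjusted p. Over all tested genes edgeR called 17.8% for aged minus young and 4.86% for spermidine minus aged. A call missing in these members does not show that they did not differ.

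**Figure D3:**
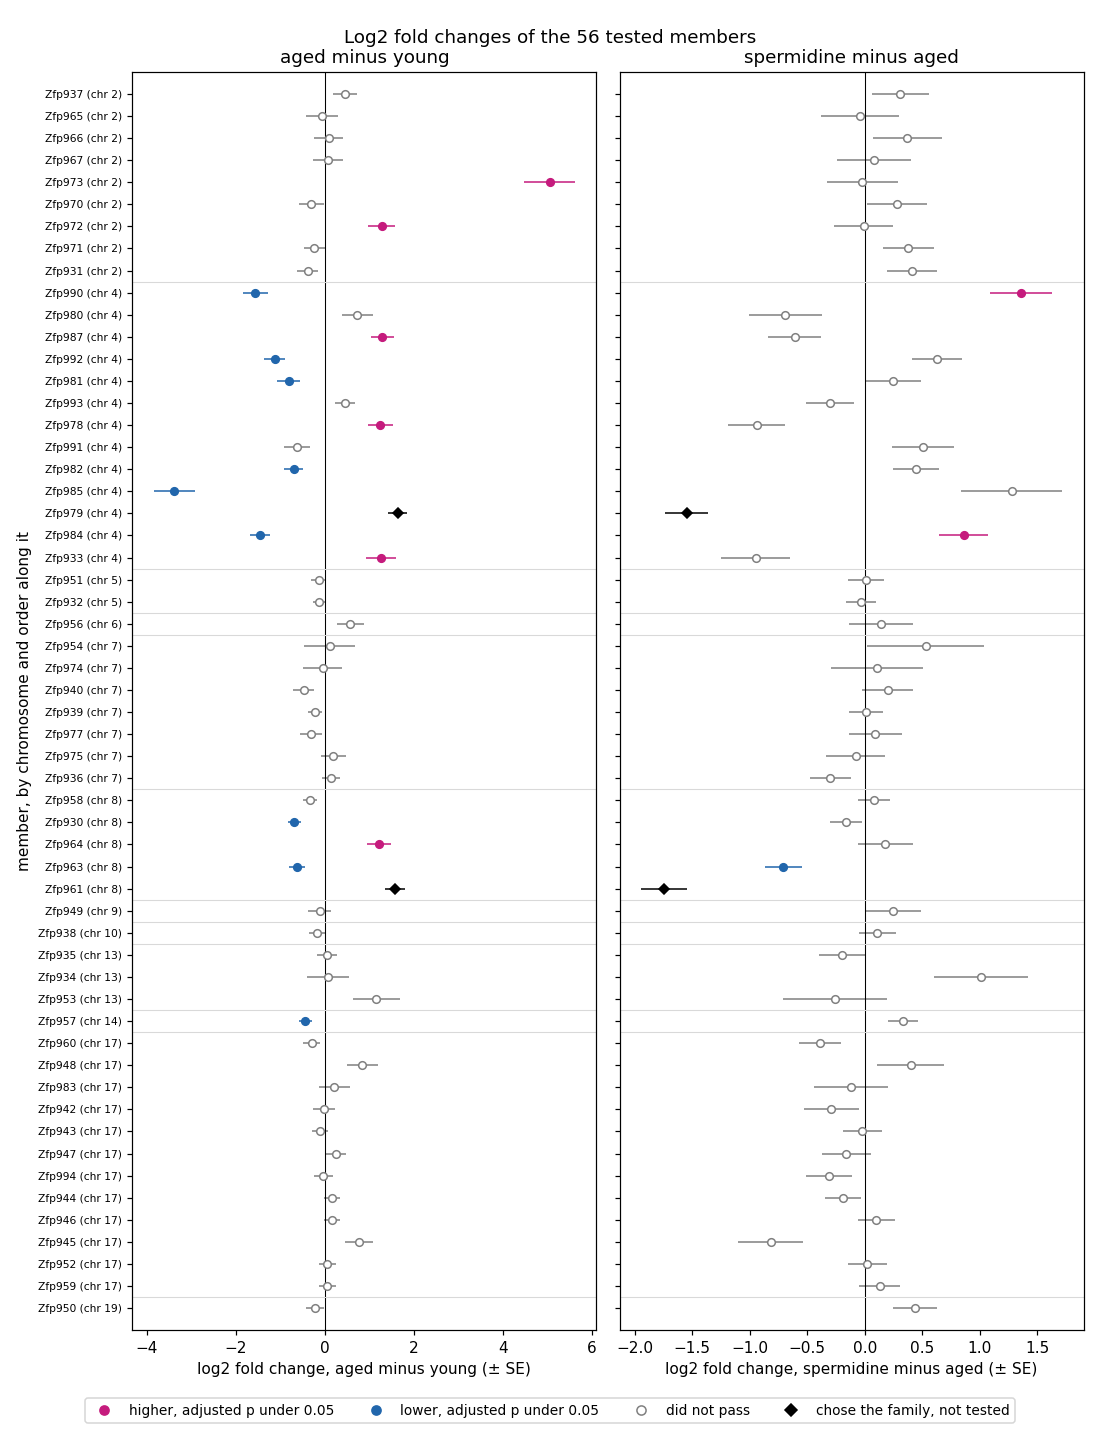
Log2 fold change with its SE (horizontal axes) of the 56 tested members, by chromosome and by order along it, for aged minus young (left) and spermidine minus aged oocytes (right). Filled circles passed at an adjusted p under 0.05 and black diamonds mark Zfp961 and Zfp979; members of chromosome 4 stand on both sides of 0 in each panel. The value of Zfp973 rests on 2 young counts and depends on the fit's prior count.

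The second comparison asks which members differ with spermidine. Beside Zfp961 and Zfp979, 3 of 54 other tested members changed between spermidine and aged oocytes: Zfp990 and Zfp984 were higher and Zfp963 was lower with spermidine. Over all tested genes 4.86% were called, 2.42% higher and 2.44% lower. This comparison too was used in choosing the genes, and nothing is read from the members' share. The median log2 difference was 0.05 over the 56 tested members and -0.03 over all tested genes. With all 56 counted the calls were 5, and 8 with the length and GC correction, 3 with total count scaling and 2 with only these groups in the fit. Leaving out 1 library gave 2 to 6, with 2 without aged replicate 2, spermidine replicate 2 or spermidine replicate 3, and 3 without young replicate 1 or aged replicate 3.

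The pattern that chose the genes, higher in aged than young and lower with spermidine, was shared at the adjusted threshold by none of the 54 other members. With Zfp961 and Zfp979 the count is 2 of 56 (3.57%), which rests on the choice of the genes, where 1.5% of all tested genes had the pattern. DESeq2 gave 3, adding Zfp978, as did the fit without aged replicate 3 or spermidine replicate 4. The length and GC correction gave 4, adding Zfp978 and Zfp987, and every other alternative gave 2. Zfp978 and Zfp987 have 24.1% and 6.9% of their stretches to themselves, so their levels are uncertain. At an unadjusted p under 0.05 in both comparisons there were 6 (10.7%): Zfp945, Zfp987, Zfp978 and Zfp933 beside Zfp979 and Zfp961, where 7.69% of all tested genes had the pattern. By sign alone it was 17 of 56 (30.4%), against 42.3% of all tested genes. Each of these counts includes Zfp961 and Zfp979, whose pattern chose the genes, so nothing is read from the members' shares.

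The reverse pattern, lower in aged than young and higher with spermidine, was shared by 2 of 56 members, Zfp990 and Zfp984, where 1.52% of all tested genes had it. At an unadjusted p under 0.05 there were 6, namely Zfp957, Zfp990, Zfp992, Zfp982, Zfp985 and Zfp984, where 7.15% of all tested genes had it. All but Zfp957 lie on chromosome 4. By sign alone it was 20 of 56 (35.7%), against 33.7% of all tested genes. Zfp963 was the 1 member to pass downward in both comparisons, as did 0.0812% of all tested genes, by edgeR. The 2 comparisons share the aged libraries, so a library that is high or low there moves both differences in opposite directions, and these counts are a description.

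Zfp945, on chromosome 17, shared the pattern of Zfp961 without passing. It averaged 0.802 CPM with spermidine, 1.43 CPM in aged and 0.838 CPM in young oocytes. The groups overlapped, unlike those of Zfp961: aged replicate 3, at 0.991 CPM, lay below young replicate 3 and spermidine replicate 1, both at 1.02 CPM. The log2 differences were 0.77 ± 0.31 for aged minus young (adjusted p = 0.0973) and -0.82 ± 0.28 for spermidine minus aged (adjusted p = 0.0993). Zfp934 averaged 1.32 CPM with spermidine, 0.659 CPM in aged and 0.640 CPM in young oocytes, with 1.01 ± 0.41 for spermidine minus aged (adjusted p = 0.163). Zfp958 averaged 124 CPM with spermidine, 117 CPM in aged and 148 CPM in young oocytes, with -0.34 ± 0.15 for aged minus young (adjusted p = 0.125).

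The third comparison sets spermidine oocytes against young ones. Of the 54 other tested members 8 changed, 4 higher and 4 lower with spermidine, where 5.36% of all tested genes were called, 3.44% higher and 1.92% lower. The difference is the sum of the other 2, and nothing is read from the members' share. Without young replicate 1 or 3, or spermidine replicate 1 or 2, the calls were 5, and with the length and GC correction 10, of which 4 were higher and 6 lower. The higher members were Zfp973, Zfp972, Zfp964 and Zfp948, and the lower ones Zfp985, Zfp930, Zfp963 and Zfp960. Of these, 6 were also called between aged and young oocytes, in the same direction; both comparisons share the young libraries, so this is no separate evidence. The median log2 difference was -0.01 over the 56 and 0.04 over all tested genes.

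Zfp948 and Zfp960 passed only in this comparison, and both lie on chromosome 17. Zfp948 had 1.20, 1.27, 1.54 and 0.920 CPM in spermidine libraries, 0.934, 1.17 and 0.697 CPM in aged libraries and 0.599, 0.359 and 0.623 CPM in young libraries. The spermidine libraries were above all young ones, and the aged libraries overlapped with the spermidine ones. It rose by 1.23 ± 0.32 on the log2 scale with spermidine against young oocytes (adjusted p = 0.0424), a call lost when any 1 of 7 of the 10 libraries was left out (adjusted p up to 0.141). Zfp960 had 32.9, 48.0, 48.6 and 35.7 CPM in spermidine libraries, 49.5, 62.8 and 49.7 CPM in aged libraries and 71.0, 55.4 and 73.6 CPM in young libraries. Spermidine libraries were the lowest, and aged and young libraries overlapped. It fell by 0.69 ± 0.18 on the log2 scale with spermidine against young oocytes (adjusted p = 0.0422), a call lost when any 1 of 6 libraries was left out (adjusted p up to 0.151). Zfp960 has 15.5% of its stretches to itself and shares 83.3% with Zfp97, which stood at 19.2 CPM with spermidine and 37.2 CPM in aged oocytes (-0.95 ± 0.21, adjusted p = 0.029). Zfp937, which did not pass, averaged 4.2 CPM with spermidine and 2.48 CPM in young oocytes (0.76 ± 0.26, adjusted p = 0.119).

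**Figure D4:**
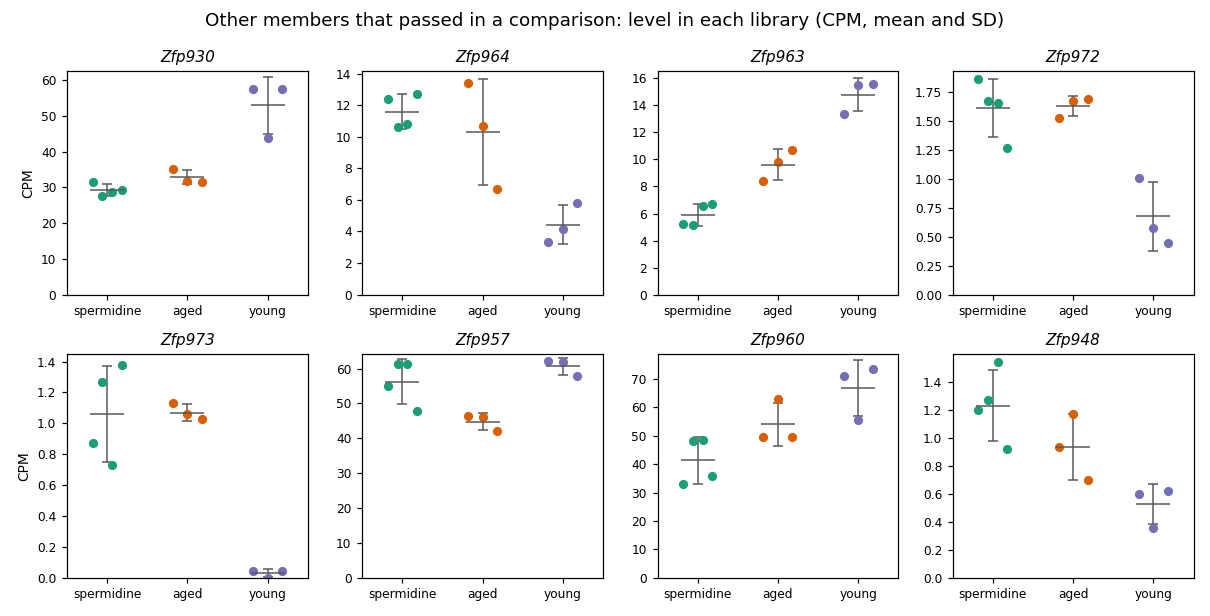
Level of the 8 members outside chromosome 4, other than Zfp961, that passed in a comparison, in each library (vertical axis, CPM on a linear scale from 0). Points are libraries of spermidine (n = 4), aged (n = 3) and young (n = 3) oocytes, and bars give the mean and the SD. Zfp930, Zfp964, Zfp972 and Zfp973 differ between young libraries and the others, and Zfp963 is lower in aged than in young and lowest in spermidine libraries.

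The most abundant members were compared per length. Per kilobase of transcript, averaged over the 10 libraries, the levels were 179 CPM for Zfp970, 60.5 CPM for Zfp982, 56.9 CPM for Zfp951, 54.6 CPM for Zfp958 and 54.4 CPM for Zfp932, a repressor of endogenous retroviruses in mouse embryonic stem cells. Of these 5 only Zfp982 passed in any comparison. Zfp970 has 42.8% of its stretches to itself, so its rank is uncertain. Zfp970 averaged 295 ± 112 CPM (SD, n = 4) with spermidine, 243 ± 42.2 CPM (n = 3) in aged and 302 ± 34.0 CPM (n = 3) in young oocytes. Zfp951 averaged 161 ± 24.6 CPM with spermidine, 160 ± 16.1 CPM in aged and 176 ± 33.4 CPM in young oocytes. Zfp932 averaged 131 ± 13.5 CPM with spermidine, 134 ± 9.18 CPM in aged and 147 ± 18.6 CPM in young oocytes. The differences of these 3 were within the spread between libraries.

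Genes that act with, or like, KRAB zinc finger proteins were given by a list of 41 genes, of which 39 were tested. In aged against young oocytes 4 were higher and 2 lower, with spermidine against aged oocytes 1 was higher and 3 lower, and with spermidine against young oocytes 1 was higher and 1 lower. These are 15.4%, 10.3% and 5.13% of the list, beside 17.8%, 4.86% and 5.36% of all tested genes. The medians were 0.12, -0.14 and 0.06, beside 0.10, -0.03 and 0.04 over all tested genes. The genes called for spermidine minus young were Zfp57 and Zfp809, zinc finger genes themselves and not partners. Zfp57 was also among the 3 lower for spermidine minus aged. Such zinc finger genes of the list also count among the other Zfp genes below. Trim28, the corepressor, did not pass, with 0.26 ± 0.24 for aged minus young (adjusted p = 0.444), -0.06 ± 0.22 for spermidine minus aged (0.896) and 0.21 ± 0.22 for spermidine minus young (0.645). Setdb1, the methyltransferase it recruits, gave 0.40 ± 0.22 (adjusted p = 0.224), -0.21 ± 0.21 (0.565) and 0.19 ± 0.21 (0.659) in the same order.

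Cbx1, which encodes the HP1 protein beta, averaged 76.5 CPM with spermidine, 50.1 CPM in aged and 91.5 CPM in young oocytes. It fell by 0.87 ± 0.13 on the log2 scale in aged against young oocytes (adjusted p = 0.00185) and rose by 0.61 ± 0.13 with spermidine against aged oocytes (adjusted p = 0.0238). Cbx3, HP1 gamma, fell by 1.54 ± 0.37 in aged against young oocytes (adjusted p = 0.0169). Dnmt1, the maintenance DNA methyltransferase, averaged 628 CPM with spermidine, 911 CPM in aged and 595 CPM in young oocytes. It rose by 0.62 ± 0.15 in aged oocytes (adjusted p = 0.0169) and fell by 0.54 ± 0.14 with spermidine (adjusted p = 0.048). Uhrf1, its partner, rose by 0.70 ± 0.17 in aged against young oocytes (adjusted p = 0.0153). Zfp57, a KRAB zinc finger gene that protects imprinted methylation, averaged 592 CPM with spermidine, 1090 CPM in aged and 1250 CPM in young oocytes. It fell by 0.89 ± 0.21 with spermidine against aged oocytes (adjusted p = 0.0375) and by 1.07 ± 0.21 with spermidine against young oocytes (adjusted p = 0.0104). Rbbp4, a histone-binding subunit of corepressor complexes, fell by 0.74 ± 0.15 with spermidine against aged oocytes (adjusted p = 0.0236). Zfp809, which silences proviruses in mouse embryonic stem cells, rose by 0.82 ± 0.21 with spermidine against young oocytes (adjusted p = 0.0442). Unlike the members' calls, the calls of these list genes were not followed with libraries left out. For spermidine minus aged, leaving out 1 library gave 99 to 1127 called genes, against 598 in the full fit.

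Other mouse genes named Zfp with 1 to 3 digits, 246 of them tested, gave 24 higher and 9 lower in aged against young oocytes, with a median of 0.16, which is 13.4% called beside 17.8% of all tested genes. For spermidine minus aged they gave 3 higher and 7 lower (median -0.10; 4.07% beside 4.86%), and for spermidine minus young 7 higher and 5 lower (median 0.06; 4.88% beside 5.36%). In the authors' deposited table, 6 members were higher and 8 lower in aged against young oocytes at a q-value under 0.05, of 59 with a value. In the authors' deposited table, of all genes with a value, 11.9% passed, 5.91% higher and 5.94% lower. For spermidine against aged oocytes that table had 3 members higher (Zfp984, Zfp990 and Zfp985) and 4 lower (Zfp978, Zfp979, Zfp961 and Zfp963), of 60 with a value, where 4.09% of all genes passed, 1.9% higher and 2.19% lower. The choice of the genes used both comparisons, and nothing is read from these shares. In the authors' deposited table the pattern of Zfp961 is therefore shared by Zfp979 and Zfp978, and the q-values of Zfp978 there are 0.0057 for aged against young and 0.0403 for spermidine against aged oocytes. Zfp978 has 24.1% of its stretches to itself, and Zfp979 shares 19.6% of its stretches with it, so its level is uncertain.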

How the data were processed

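RNA of 10 oocyte libraries (4 spermidine, 3 aged, 3 young, grouped by title) was analysed from 1 table. The authors deposited an expected count per gene and library, a read count per the file headers, of which 15.85% or more were not whole in a library. The same deposited table gives the authors' log2 fold changes with p-values and q-values. The build mm9, RSEM 1.3.1, Bowtie2 2.3.4.3 and DESeq2 1.4.5 are listed without role in the submitters' processing notes; strand use is not given in the sources used here.

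Expected counts were rounded. With R 4.3.3 and edgeR 4.0.16, genes kept by filterByExpr were scaled by TMM and tested by the quasi-likelihood F test (robust) in a single fit of the 3 group means. P-values were adjusted by Benjamini-Hochberg over 12315 genes, threshold 0.05. CPM, counts relative to the TMM-scaled total, was computed from the counts. The procedure was tested on simulated data.

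The members and lists were chosen with earlier results of these data known. Named by rule were Zfp961, Zfp979, members that passed, the 5 of highest level per length, and the 2 of smallest p that passed nowhere, per comparison; of the KRAB list, up to 4 genes of smallest p. Neighbours and closest copies were chosen after values were seen. Transcripts (GENCODE M21, GRCm38) gave length, GC content, fingers and shared stretches of 50 bases; RefSeq gave promoters, searched with Python 3.11.15. Alternatives were RLE factors, total count scaling, no filter, DESeq2 1.42.0, a replicate block, a fit of only the groups compared, 10 CPM in 3 libraries, no robust step and each library left out. The length and GC correction, and leaving out aged replicate 1 with spermidine replicate 1, were added after seeing the data.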

Additional observations from a re-analysis of the deposited data

How the results depend on the processing

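No difference called for a named member changed sign in any alternative. Leaving out 1 library gave 827 to 2362 genes called for aged minus young, 99 to 1127 for spermidine minus aged and 283 to 874 for spermidine minus young, where the full fit gave 2189, 598 and 660. For members it gave 11 to 17, 2 to 6 and 5 to 9, where the full fit gave 17, 5 and 8, and 2 to 3 members with the pattern of Zfp961. Gene counts moved by over 1.5 times without young replicate 1 (827, 273 and 283 in the order of comparisons), young replicate 3 (1031, 281 and 326), aged replicate 2 (1359 and 99, for aged minus young and spermidine minus aged), aged replicate 3 (1426 and 167, likewise), spermidine replicate 2 (111 and 376, for spermidine minus aged and minus young), spermidine replicate 3 (167 for spermidine minus aged) and spermidine replicate 4 (1127 for the same). The filter of 10 CPM, which tests fewer genes, gave 1179 genes and 7 members for aged minus young, and 273 genes and 3 members for spermidine minus young. Total count scaling gave 259 genes and 3 members for spermidine minus aged. It split all genes into 1236 higher and 405 lower for aged minus young and 605 and 126 for spermidine minus young, against 1196 and 993, and 424 and 236, in the full fit, and moved the median of all genes from 0.10 to 0.24 and from 0.04 to 0.23. DESeq2 gave 1348 genes for spermidine minus aged and 1053 for spermidine minus young, which split into 543 higher and 510 lower. Only the groups compared gave 124 genes and 2 members for spermidine minus aged. The length and GC correction gave 8 members for spermidine minus aged and 4 with the pattern, and 427 genes higher and 363 lower for spermidine minus young. The cause of these shifts was not tested beyond the fewer genes or libraries in a fit.

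Libraries with the same number did not all deviate together, with correlations from -0.275 to 0.408. The highest was that of aged replicate 1 with spermidine replicate 1. Libraries with different numbers gave -0.414 to 0.356. The numbers were therefore not used as pairs in the main fit, and whether some of them share a preparation was not tested. With the replicate block the fit called 2318, 998 and 631 genes and 17, 5 and 6 members in the order of comparisons above; Zfp948 and Zfp960 lost their calls for spermidine minus young under it (adjusted p = 0.0563 and 0.0869). Members at about 1 CPM or less are limited by depth, and 4 members were too low to test.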
